A study of Mus musculus with 8 samples.

Results

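The genes described here are 10 chaperones, disulfide isomerases and XBP1 pathway genes of the endoplasmic reticulum (ER): Hspa5, Hsp90b1, Calr, Canx, Pdia3, Pdia4, Pdia6, Xbp1, Dnajb9 and Sdf2l1. They were chosen by name, and all 10 had a row among the 19055 gene symbols measured. Expression was measured by 3′ RNA sequencing in 8 libraries of mouse liver 48 hours after removal of part of the liver, when the remaining hepatocytes divide. The 3 controls carried the genotype URI(+/+)Hep, and the 5 other libraries carried URI(+/D)Hep, in which a serum albumin-creERT2 line deletes URI in hepatocytes. The genotype keeps 1 wild-type copy next to the allele called D, and no other liver cell type is named as a target of the deletion. Animals of both groups were 8 to 9 weeks old and had 1 week of tamoxifen. The comparison asks how deletion of URI, the prefoldin-like product of Uri1, in hepatocytes bears on these folding genes during regeneration. Whole liver RNA was sequenced, so fewer cells of a type and less RNA per cell cannot be told apart.

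Secretory proteins enter the ER unfolded, and there they meet HSPA5 (BiP), an Hsp70 chaperone, and HSP90B1 (GRP94), an Hsp90 chaperone. Calnexin and calreticulin hold glycoproteins by their sugars, while protein disulfide isomerases make and rearrange disulfide bonds. When unfolded proteins build up, the sensor IRE1 splices Xbp1 mRNA, and the XBP1 and ATF6 transcription factors raise chaperone genes. Another sensor, PERK, acts through ATF4. The liver makes most plasma proteins, so hepatocytes depend on this machinery.

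The promoters were searched for the elements of this stress response. The ER stress response element, ERSE, was searched as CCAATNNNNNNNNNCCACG on both strands, in 300 bases around each RefSeq transcription start of the build GRCm38.p6. The element is known to bind NF-Y at CCAAT and ATF6 or XBP1 at CCACG. All 10 genes had an entry, and 5 of the 10 held an exact ERSE, against 39 of 32851 promoters in the table (0.119%). A gene counted if any of its promoters matched, while the 32851 are single promoters of 27025 symbols. The 10 were chosen by name from the response that this element belongs to. Matches could therefore be foreseen, and the contrast is not a test. Each match is given with 20 bases on each side, in the sense of the gene. Capitals mark the CCAAT and CCACG blocks, or their reverse complements ATTGG and CGTGG.
Hspa5, chr2:34772005-34772063, plus strand: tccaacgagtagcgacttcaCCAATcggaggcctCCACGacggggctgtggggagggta
Pdia6, chr12:17266471-17266529, plus strand: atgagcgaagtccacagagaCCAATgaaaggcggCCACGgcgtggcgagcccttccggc
Canx, chr11:50325780-50325838, minus strand: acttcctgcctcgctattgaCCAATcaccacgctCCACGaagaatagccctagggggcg
Calr, chr8:84847055-84847113, minus strand: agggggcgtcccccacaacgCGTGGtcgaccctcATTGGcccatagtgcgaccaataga
Hsp90b1 far site, chr10:86705618-86705676, minus strand: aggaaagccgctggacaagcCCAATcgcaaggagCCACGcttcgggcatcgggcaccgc
Hsp90b1 near site, chr10:86705513-86705571, minus strand: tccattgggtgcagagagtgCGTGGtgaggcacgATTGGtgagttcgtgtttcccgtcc
The elements began 65 bases before the start in Hspa5, 98 in Pdia6, 145 in Canx, 162 in Calr, and 212 and 107 in Hsp90b1. The shorter ERSE-II, ATTGGNCCACG, shares these blocks at another spacing. It was in none of the 10, against 12 promoters in the table (0.0365%). The 8 letters TGACGTGG of the UPRE, an element bound by XBP1, were likewise in none of the 10, against 222 promoters (0.676%). Of 99 other listed ER genes with an entry, 5 held an exact ERSE (Dnajc3, Creld2, Ero1b, Syvn1 and Derl3) and 2 an ERSE-II (Dnajb11 and Herpud1). The UPRE was in 6 of the 99 (Txndc5, Vcp, Ube2j1, Sec23a, Sec24d and Kdelr3). A match describes letters in a window and is not evidence of binding, and a missing match says nothing about the factor.

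**Figure D1:**
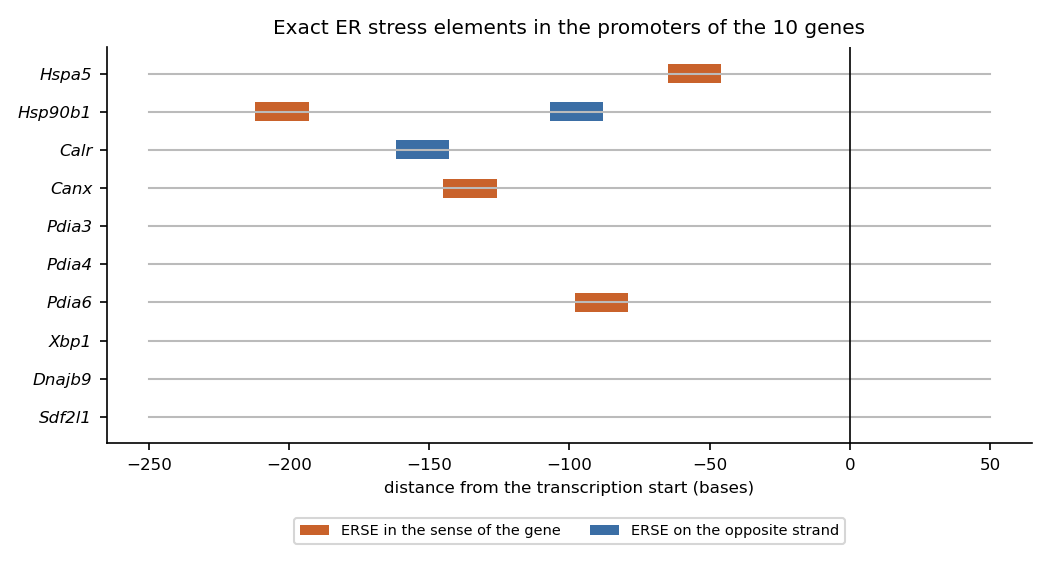
Position of exact ERSE matches (bars) in the promoters of the 10 genes, with the distance from the transcription start in bases on the horizontal axis and 1 gene per row. Hsp90b1 has 2 matches, Hspa5, Calr, Canx and Pdia6 have 1 each, and the other 5 rows are empty.

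Depth ranged from 3838674 to 4800694 reads per library. Uri1 was at 468, 374 and 310.05 normalized reads in the controls and at 328, 398, 437, 354 and 401 in the libraries labelled URI(+/D)Hep (limma log2 fold change 0.01, SE 0.15, adjusted p = 0.975). The sources used here do not give the deleted part of the gene. These 3′ reads therefore do not check the labels, and groups are called by their labels. The labels call the cells epithelial, and hepatocyte markers were high in every library, with Alb between 5345 and 10748. The 6 listed ones summed to 24831 to 27697 in controls and to 24572 to 27680 in the other group. They did not move together: 4 had negative and 2 positive log2 fold changes. Cps1 was at 1077 to 1880 in controls and at 2709 to 3682 in the other group, without overlap. Markers of other cells were present too. The 6 endothelial markers summed to 1564 to 1996 in controls and to 2140.2 to 2334 in the other group, the 8 neutrophil markers to 539.6 to 1081 against 302 to 872. The 4 Y-linked genes summed to 1558, 1312 and 569 in the controls, to 3.54 in URI(+/D)Hep 1 and to 786 to 1002 in the rest. Xist, the RNA of the inactive X chromosome of females, was at 9.59 and 2.95 in controls 1 and 2, at 1298 in control 3 and at 1217 to 2357 in all 5 libraries labelled URI(+/D)Hep. Only controls 1 and 2 were therefore without female RNA, and sex composition ran in part with genotype. Control 3 and URI(+/D)Hep 2 to 5 held both Xist and Y-linked reads, so it is uncertain that each library is 1 animal. Against control 3 alone, the log2 fold changes were -0.40 for Xbp1, -0.38 for Hspa5, -0.43 for Pdia6, -0.51 for Sdf2l1 and 0.66 for Pdia4, a comparison chosen after seeing the data, in which limma called none of the 10. The 5 cholangiocyte markers also set controls 1 and 2 apart, at 1643 and 1051 against 245 in control 3 and 220.1 to 886 in the other group. The 8 cycling markers summed to 319 in control 1 and 467 in URI(+/D)Hep 5, against 2020.05 to 4397 in the other 6. The part of these differences in the results below was not tested beyond the alternatives given. Whether the libraries came from separate animals is not stated for each one, and p-values measure only the spread between these libraries.

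None of the 10 genes passed the limma test over all 13704 genes (adjusted p under 0.05). That test called 2 genes in all, 0.0146% of those tested, both lower. At an unadjusted p under 0.05, limma counted 3 of the 10 lower (Xbp1, Pdia6, Sdf2l1) and 1 higher (Pdia4), against 9.33% and 8.35% of all genes. The same 3 genes lay below the controls in all 5 libraries labelled URI(+/D)Hep, where 7.3% of all genes did so, and Pdia4 lay above in all 5, where 6.13% did. The median log2 fold change of the 10 was -0.23, with 8 of 10 negative, beside a median of -0.0019 and 50.2% negative over all genes. Counts recovered from the same table gave 0 calls among the 10 with edgeR, which called 0.0219% of all genes. DESeq2 called 1 of the 10 lower (Xbp1) and 1 higher (Pdia4), where it called 4.1% of the genes it adjusted lower, 2.57% higher and 6.67% in all.

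**Figure D2:**
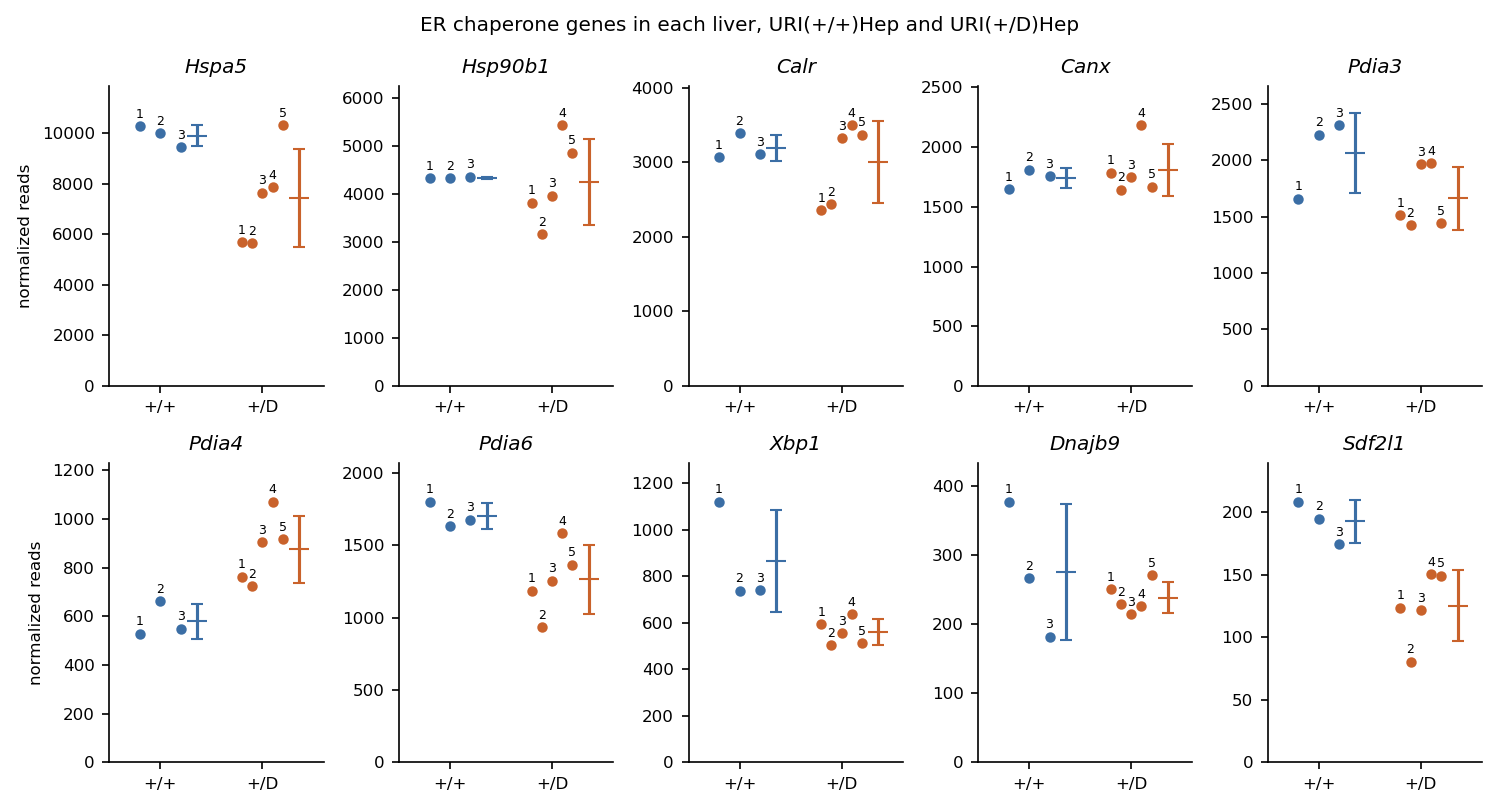
Normalized reads (vertical axes, from 0) of each gene in the 3 URI(+/+)Hep and 5 URI(+/D)Hep libraries, with replicate numbers beside the points and the mean ± SD beside each group. Pdia4 lies higher in every URI(+/D)Hep library than in any control, and Pdia6, Xbp1 and Sdf2l1 lie lower.

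Xbp1 encodes the transcription factor that gives this arm its name. It stood at 1121, 738 and 740.2 normalized reads in controls 1 to 3, and at 596, 505, 557, 639 and 511 in URI(+/D)Hep 1 to 5. The groups did not overlap, and control 1 was far above the other controls. The means were 867 ± 221 (SD, n = 3) and 561 ± 56.9 (SD, n = 5), 64.8% of the control. The log2 fold change was -0.60 (standard error 0.16, 95% interval -0.96 to -0.25; adjusted p in limma = 0.129). Without control 1 it was -0.40 (adjusted p in limma = 0.190). DESeq2 on recovered reads gave an adjusted p of 0.0180, and 0.0750 without URI(+/D)Hep 5. A 3′ read does not tell spliced from unspliced Xbp1 mRNA, so the values are of both forms together and do not measure IRE1 activity.

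Hspa5 encodes the Hsp70 chaperone that binds unfolded chains and holds the stress sensors inactive. It stood at 10293, 9999.999 and 9442 in the controls, and at 5678, 5656, 7648, 7868 and 10323 in URI(+/D)Hep 1 to 5. Libraries 1 to 4 of the URI(+/D)Hep group lay below every control, and library 5 lay above them all. On average Hspa5 was at 9912 ± 433 against 7435 ± 1925, and its log2 fold change was -0.45 (standard error 0.20; adjusted p in limma = 0.283). URI(+/D)Hep 5 was also the library with pancreatic acinar transcripts: the 3 of 6 listed acinar genes with a row summed to 104 normalized reads there and to 5.56 or less in each other library. Its Epcam, a gene of biliary and other epithelia, was at 525, against 7.96 to 30.0 in the others. Their part in the Hspa5 level was not tested. Without that library the log2 fold change was -0.58 (adjusted p in limma = 0.172). DESeq2 then called Hspa5 (adjusted p = 0.0472), in a fit added after seeing the data, whose counts over all genes are given below. The ranges then separated for Hspa5 as well, which made 4 of the 10 genes lower against 9.16% of all genes. For Hspa5 that separation follows from leaving out the only library of its group that was not below the controls.

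Dnajb9 and Sdf2l1 encode partners of HSPA5. DNAJB9 (ERdj4) is a J-domain protein and an established XBP1 target. Its reads were 378, 267 and 182 in the controls and 251, 229.6, 215, 227 and 271 in URI(+/D)Hep 1 to 5. Every URI(+/D)Hep value fell inside the range of the controls, whose SD of 98.0 was the wider one, against 22.4. The log2 fold change was -0.15 (standard error 0.21; adjusted p in limma = 0.746), and it was 0.11 without control 1 and 0.38 against control 3 alone, so it has no settled direction. SDF2L1 works with J-domain proteins to keep HSPA5 clients from aggregating. Sdf2l1 stood at 209, 195 and 175 in the controls and at 124, 80.6, 122, 151 and 149 in URI(+/D)Hep 1 to 5. Each of those 5 libraries was below each control, with means of 193 ± 17.0 and 125 ± 28.5. Its log2 fold change, -0.65, was the most negative of the 10 (standard error 0.21, 95% interval -1.11 to -0.18; adjusted p in limma = 0.167). The 2 genes of the XBP1 arm thus differ in their ranges, which overlap for Dnajb9 and do not for Sdf2l1. Whether their fold changes differ was not tested.

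Hsp90b1 encodes the ER Hsp90, whose known clients include integrins and Toll-like receptors. The controls were nearly equal at 4340.2, 4334 and 4371 normalized reads, and the libraries labelled URI(+/D)Hep were spread on both sides of them, at 3825, 3174, 3972, 5443 and 4868. The log2 fold change was -0.057 (standard error 0.17, 95% interval -0.44 to 0.33; adjusted p in limma = 0.893). Its ends are 0.737 and 1.25 times the control. The sign turned without URI(+/D)Hep 2 (0.043) and with quantile normalization (0.051).

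Calr and Canx encode the sugar-binding chaperones calreticulin, which is soluble, and calnexin, which spans the membrane. Calr was at 3073, 3392 and 3107 in the controls and at 2362, 2439.8, 3321, 3499.6 and 3372 in URI(+/D)Hep 1 to 5. Libraries 1 and 2 of the URI(+/D)Hep group were below every control and the other 3 were among or above them. The log2 fold change was -0.11 (standard error 0.16, 95% interval -0.47 to 0.25; adjusted p in limma = 0.758), and turned to 0.013 once the Y-linked share of reads was a covariate. Canx was at 1649, 1812 and 1759 in the controls and at 1787, 1644, 1750.4, 2184 and 1668 in URI(+/D)Hep 1 to 5. Only library 4 stood away from the rest. The log2 fold change was 0.048 (standard error 0.11, 95% interval -0.21 to 0.30; adjusted p in limma = 0.862), and -0.023 without that library.

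Pdia3 encodes ERp57, the disulfide isomerase that works with calnexin and calreticulin on glycoproteins. It stood at 1657, 2224 and 2309.8 normalized reads in the controls and at 1513, 1422, 1962, 1971 and 1444 in URI(+/D)Hep 1 to 5. Control 1 was the low control and lay within the URI(+/D)Hep range, so the groups overlapped. The log2 fold change was -0.31 (standard error 0.17, 95% interval -0.69 to 0.060; adjusted p in limma = 0.358). It was -0.49 without control 1, and all 5 libraries labelled URI(+/D)Hep then lay below the 2 remaining controls, which held for 11.5% of all genes too.

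Pdia6 and Pdia4 encode the isomerases ERp5 and ERp72. PDIA6 is known to act on IRE1 as well as on substrates. Its gene was at 1801, 1629.6 and 1677 in the controls and at 1186, 936, 1255, 1583 and 1365 in URI(+/D)Hep 1 to 5. All 5 were below the lowest control, library 4 by a small margin. On average Pdia6 was at 1703 ± 88.7 against 1265 ± 237, and its log2 fold change was -0.45 (standard error 0.16, 95% interval -0.80 to -0.093; adjusted p in limma = 0.198). Pdia4 had the other sign. It was at 529, 663 and 549 in the controls and at 762, 724, 905, 1071 and 916 in URI(+/D)Hep 1 to 5, where each library exceeded each control. The means were 580.3 ± 72.1 and 875 ± 138, or 151% of the control, and its log2 fold change was 0.59 (standard error 0.15, 95% interval 0.26 to 0.92; adjusted p in limma = 0.120). DESeq2 on recovered reads gave 0.0160 for Pdia4, and 0.0714 without URI(+/D)Hep 5.

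**Figure D3:**
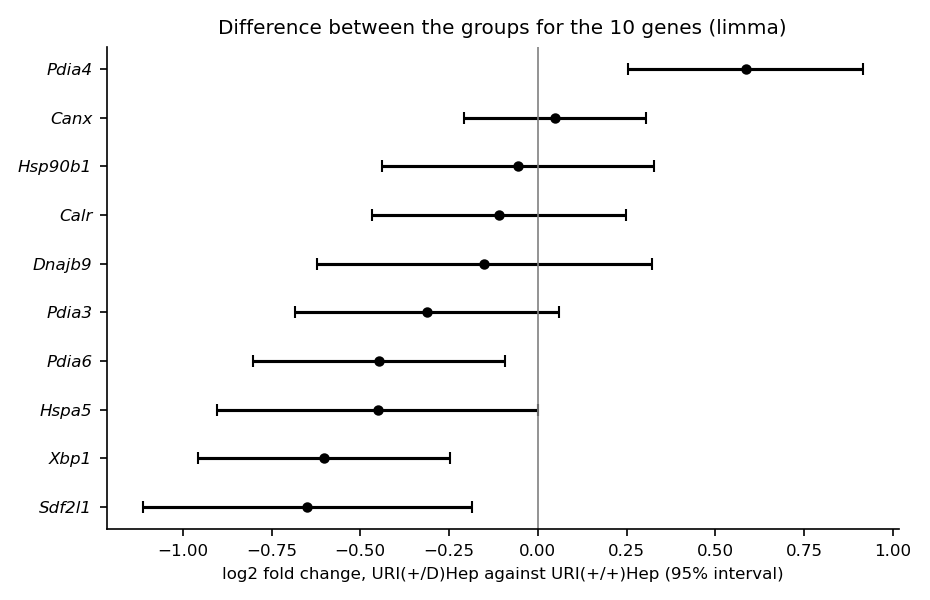
log2 fold change of URI(+/D)Hep against URI(+/+)Hep on the log2(value + 1) scale, with 95% intervals from limma (points and bars, 1 gene per row). Pdia4 at 0.59 is the only gene whose interval lies above 0, and the intervals of Pdia6, Xbp1 and Sdf2l1 lie below 0, before adjustment for the 13704 genes tested.

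The ratio of 2 genes within a library does not depend on a scaling by 1 factor per library, although quantile normalization can change it. Pdia4 over Pdia6 was 0.294, 0.407 and 0.328 in controls 1 to 3 and 0.642, 0.773, 0.721, 0.676 and 0.671 in URI(+/D)Hep 1 to 5. The lowest ratio of the second group thus exceeded the highest of the first. That separation was fixed by the 2 genes, since Pdia4 lay above and Pdia6 below every control in all 5 libraries, and it is not a further result. The mean of this ratio was 0.343 ± 0.0580 in controls and 0.697 ± 0.0513 in the others. Relative to the mean, the 5 libraries varied less in this ratio than in either gene, while the controls varied more in it than in either. Hspa5 over Hsp90b1, the Hsp70 and the Hsp90 of this compartment, was 2.37, 2.31 and 2.16 in controls and 1.48, 1.78, 1.93, 1.45 and 2.12 in URI(+/D)Hep 1 to 5. These ranges did not overlap either, although library 5 came close to control 3. Xbp1 over Dnajb9 overlapped, at 2.77 to 4.06 in controls against 1.89 to 2.82. The pairs were picked after the values had been seen, and no test is given for them.

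Within the group labelled URI(+/D)Hep, most of the 10 genes had their extremes in the same libraries. URI(+/D)Hep 2 had the lowest value of its group for 8 of the 10 genes, all but Calr and Dnajb9, and URI(+/D)Hep 4 had the highest for 8 of the 10, all but Hspa5 and Dnajb9. Over all genes tested, URI(+/D)Hep 2 was lowest for 14.7% and URI(+/D)Hep 4 highest for 21.1%. With TMM scaling the counts among the 10 were 8 and 7, and with quantile normalization 5 and 7. The share of all reads that fell on the 10 genes was 0.544%, 0.591% and 0.557% in the controls and 0.426%, 0.404%, 0.508%, 0.579% and 0.586% in URI(+/D)Hep 1 to 5. Libraries 1 and 2 of the second group were thus the low ones, and libraries 4 and 5 lay within the range of the controls. Among the controls, in the values as deposited, control 1 was highest for Hspa5, Pdia6, Xbp1, Dnajb9 and Sdf2l1 and lowest for Calr, Canx, Pdia3 and Pdia4. With quantile normalization control 1 was lowest for 6 of the 10, and control 2 was highest for 5 and lowest for 0. Shares over all genes were not computed for the controls.

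**Figure D4:**
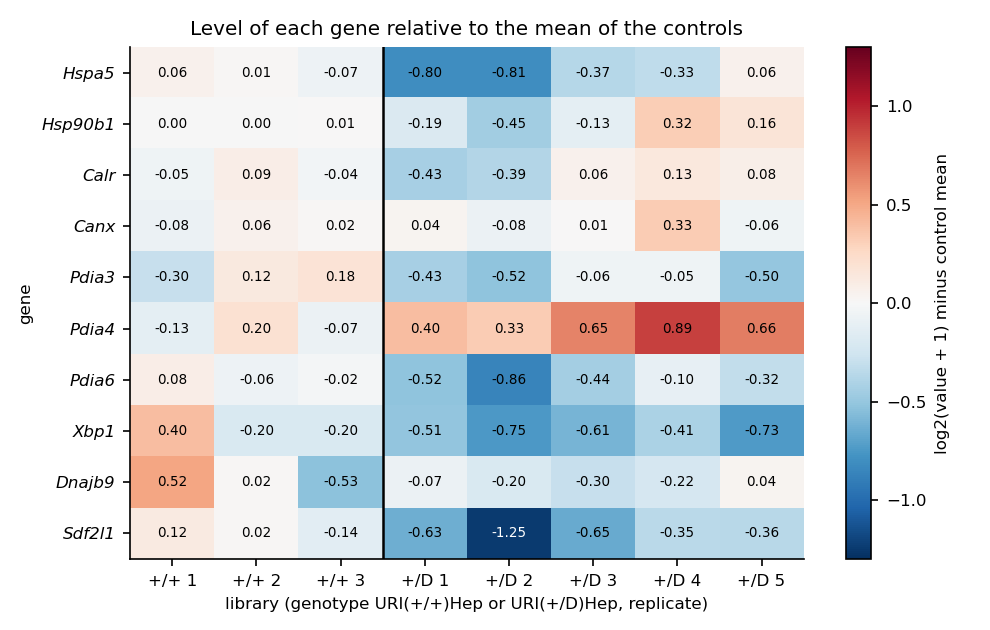
Each gene (rows) in each library (columns) as log2(value + 1) minus the mean of the 3 controls; blue is lower and red higher, and the line separates URI(+/+)Hep from URI(+/D)Hep. Pdia4 is positive and Pdia6, Xbp1 and Sdf2l1 are negative in all 5 URI(+/D)Hep libraries, while URI(+/D)Hep 2 holds the lowest value of the map, -1.25 for Sdf2l1.

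Set beside the promoters, the genes with an exact ERSE had log2 fold changes of -0.45 (Hspa5), -0.45 (Pdia6), -0.11 (Calr), -0.057 (Hsp90b1) and 0.048 (Canx). Those without one had -0.65 (Sdf2l1), -0.60 (Xbp1), -0.31 (Pdia3), -0.15 (Dnajb9) and 0.59 (Pdia4). The largest differences in either direction were therefore in the second set. The sets were not compared by a test.

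The rest of the ER pathway was described with 8 further lists, of which 115 genes were tested. None passed limma over all genes. Of the 115, 92 were negative, and the median of all 115 was -0.26. At an unadjusted p under 0.05 limma counted 47 lower and 1 higher, and the ranges of the groups separated for 35 lower and 2 higher (the 2 were Pdia5 and Os9, singled out after their values were seen). The shares over all genes are those given above.

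Genes of protein entry and glycan transfer held the most separated ranges. The translocon, signal peptidase and oligosaccharyltransferase list had 21 of 23 tested genes negative, a median of -0.31 and 12 genes below the controls in all libraries. Ssr2, a subunit of the translocon-associated complex, was at 774, 805 and 936 in the controls and at 508, 451, 534, 564 and 566 in URI(+/D)Hep 1 to 5, without overlap (log2 fold change -0.68, standard error 0.11; adjusted p in limma = 0.108). Ostc, an oligosaccharyltransferase subunit, was at 1892, 1916 and 1894 and at 1173, 1079, 1293, 1388 and 1407, again without overlap (log2 fold change -0.59, adjusted p in limma = 0.108). DESeq2 called 9 of these 23 lower and 0 higher, against 4.1% and 2.57% of the genes it adjusted.

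Folding cofactors outside the 10 genes lay in the same direction in part. Among 13 other Hsp70 and Hsp90 cofactors, 9 were negative and the median was -0.33, which was -0.19 with edgeR, -0.18 with DESeq2, -0.17 without URI(+/D)Hep 2 and -0.21 without control 1. They were led by Dnajc10, a disulfide reductase with a J domain (515 ± 24.3 against 395 ± 49.1), and Manf, a secreted ER stress protein (571 ± 103 against 384 ± 98.6), and DESeq2 called 0 of them. Among 13 other disulfide isomerases and oxidases the median was -0.052, with 9 negative, and it ranged from -0.21 to -0.083 when 1 library was left out (-0.21 without URI(+/D)Hep 1). Erp29, a chaperone with a thioredoxin fold, stood at 859 ± 64.3 against 581 ± 40.2 (log2 fold change -0.56, adjusted p in limma = 0.108), and Erp44, which retains proteins by thiol exchange, at 818 ± 62.1 against 669 ± 24.6. DESeq2 called those 2 lower. The glycoprotein folding cycle had 7 of 9 negative and a median of -0.34, with Lman2, a cargo lectin, at 1902 ± 149.8 against 1409.7 ± 119 and Prkcsh, the glucosidase II beta subunit, at 352 ± 13.6 against 266 ± 25.3. In that list DESeq2 adjusted 8 genes and called Lman2 and Prkcsh lower and 0 genes higher.

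The lists for degradation and export were mostly negative too. ER-associated degradation had 16 of 18 negative and a median of -0.20, which was -0.084 without control 1. Its leading genes were Ube2j1, an ER ubiquitin-conjugating enzyme, at 456 ± 27.3 against 312 ± 27.5, and Herpud1, a scaffold of that pathway, at 2563 ± 612 against 1799.9 ± 156. DESeq2 called 3 of the 18 lower, Ube2j1 and Herpud1 among them, and 0 higher. ER to Golgi transport had 12 of 16 negative and a median of -0.26, which was -0.14 without control 1. Sar1a, the GTPase of COPII coats, stood at 663 ± 50.1 against 460.02 ± 41.2, and Surf4, a cargo receptor, at 1759 ± 171 against 1279 ± 86.8. Of the 16, DESeq2 called 4 lower, Sar1a and Surf4 among them, and 0 higher.

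**Figure D5:**
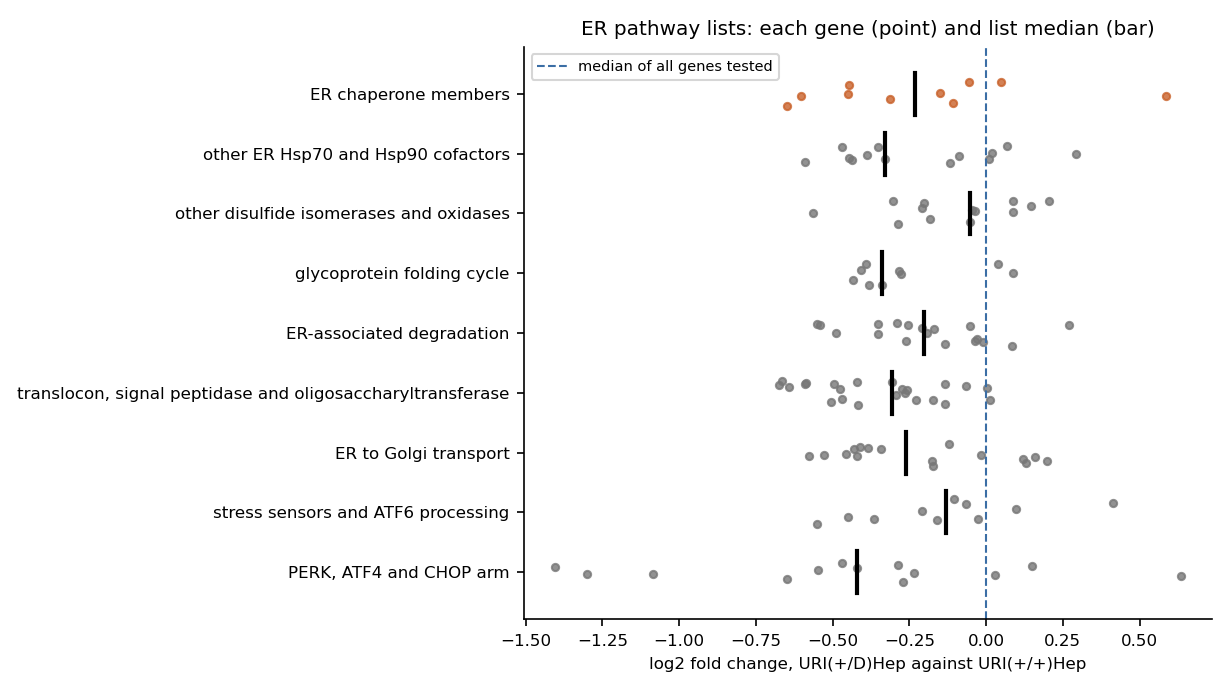
log2 fold change of each tested gene (points) in the 10-gene set and the 8 other ER lists, with list medians as black bars and the median of all 13704 genes as a dashed line. All 9 medians lie left of the dashed line, from -0.42 for the PERK, ATF4 and CHOP arm to -0.052 for other disulfide isomerases and oxidases.

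The stress sensors had 8 of 10 negative and a median of -0.13, which was -0.058 without control 1. Atf6b, a relative of ATF6, stood at 312 ± 22.3 against 229 ± 26.1, and Rtcb, the ligase that joins spliced Xbp1 mRNA, at 510.5 ± 111 against 391 ± 21.0 (log2 fold change -0.36, adjusted p in limma = 0.216). The PERK, ATF4 and CHOP arm had 10 of 13 negative and the lowest median, -0.42. Atf4 was at 1830.1, 1408 and 1461 in the controls and at 926, 852, 1219, 847 and 1183 in URI(+/D)Hep 1 to 5, without overlap (log2 fold change -0.65, standard error 0.16; adjusted p in limma = 0.120). Trib3, an ATF4 target, was at 115, 78.8 and 101 and at 38.9, 21.3, 52.2, 36.5 and 38.6 (log2 fold change -1.40, standard error 0.27; adjusted p in limma = 0.109). DESeq2 adjusted 8 genes of that arm and called Atf4 and Trib3 lower. In the sensor list it adjusted 9 and called only Atf6b, also lower. Over all the genes it adjusted, it called 4.1% lower.

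Some genes outside the pathway followed the mean profile of the 10 genes, taken as the average of their standardized log2 values over the 8 libraries. Pearson r with that profile was 0.93 for Pdia6, 0.89 for Sdf2l1, 0.88 for Hsp90b1, 0.85 for Calr and 0.81 for Hspa5, 0.60 for Pdia3 and Xbp1, 0.48 for Canx, 0.27 for Dnajb9 and -0.01 for Pdia4. The 10 values of each library enter the profile, so these r are descriptions of how far each gene contributes. Of the other tested genes, the 5 most like it were Fam98b (r = 0.96), Saa2 (0.92), Tomm40l (0.91), Polb (0.91) and Sergef (0.91). Saa2, an acute phase protein, was at 27449, 28689 and 23156 in the controls and at 15409, 14161, 20724, 22786 and 23797 in URI(+/D)Hep 1 to 5, low in libraries 1 and 2 as the summed share of the 10 genes was. The 2 most opposed were Mtmr12 (-0.92) and Tgfb1 (-0.91). Tgfb1, the growth-inhibiting cytokine, was at 48.0, 47.3 and 52.6 in the controls and at 85.7, 79.6, 64.8, 48.7 and 64.3 in the other group, highest in libraries 1 and 2. Such values are picked as extremes of 13704 genes over 8 points.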

How the data were processed

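The authors deposited normalized signal per gene symbol, that is, counts divided by 1 size factor per library. Per the submitters' processing notes, the tools were featureCounts, DESeq2 and bcl2fastq and the build was GRCm39. The sources used here do not give the aligner or the use of the molecular identifiers (6 nt, per the labels). In each library 100% of values were whole multiples (tolerance 1e-06) of the smallest one above 0, so reads could be recovered. In URI(+/D)Hep 5 that step was close to 1, at 0.989, and is less certain. Control 2 had a similar step, 0.985, and was kept in all count tests. Then limma 3.58.1 (R 4.3.3, mean trend, Benjamini-Hochberg adjustment) was run on log2(value + 1) of the 13704 genes that reached 10 in 3 or more libraries. Fold changes on that scale understate low genes. Recovered reads were tested with edgeR 4.0.16 and DESeq2 1.42.0, which left 4533 genes without an adjusted p. The fits were also run on simulated counts with the same dispersion for all genes and no sex or cycling differences. That run does not show how they perform on these libraries. Members, lists and alternatives were chosen with earlier results of these data known. Named genes were the 10 members, Uri1, the 2 of smallest p per list, listed markers and the genes most like or unlike the mean profile, with exceptions marked. Promoters came from RefSeq, GRCm38.p6, another build than the counts.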

Additional observations from a re-analysis of the deposited data

Results flagged for a closer look

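Among the 5 libraries labelled URI(+/D)Hep, 46 values were examined for a single library far from the rest, where chance marks about 1 in 20, and 4 had one. Canx was at 2184 normalized reads in URI(+/D)Hep 4, against 1787 for the next highest. The plasma cell markers with a row, 7 of 9 listed, summed to 1897 in URI(+/D)Hep 5 against 1439.9, within the 1464 to 2616 of the controls, most of it Sdc1, which hepatocytes also express. The 5 cholangiocyte markers summed to 886 in that library against 341, below the 1643 and 1051 of controls 1 and 2, and the 3 acinar genes to 104 against 5.56. The controls (3) were too few for this comparison.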

How the results depend on the processing

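Over 23 alternatives the median log2 fold change of the 10 genes stayed between -0.32 and -0.16. The members called were 0 in each, except 1 lower and 1 higher with DESeq2 (Xbp1, Pdia4) and 1 lower with DESeq2 on 7 libraries (Hspa5). Xbp1, Hspa5, Pdia3, Pdia4, Pdia6 and Sdf2l1 kept their sign in all 23. The sign turned for Hsp90b1 with quantile normalization (0.051) and without URI(+/D)Hep 2 (0.043), for Canx with the replicate block (-0.011) and without URI(+/D)Hep 4 (-0.023), and for Calr with the Y-linked covariate (0.013). It turned for Dnajb9 without control 1 (0.11), on the 6 libraries other than control 1 and URI(+/D)Hep 5 (0.061) and against control 3 alone (0.38). Leaving out 1 library at a time gave -0.15 to 0.043 for Hsp90b1, -0.023 to 0.080 for Canx and -0.42 to 0.11 for Dnajb9. The fit against control 3 alone, where the lone control takes its spread from the other group, and the count tests on 7 libraries (without URI(+/D)Hep 5) were added after seeing the data.

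Over all genes, limma called 2 lower and 0 higher. The lower count was 0 with quantile normalization, without the trend, with the Y-linked covariate, on those 6 libraries, against control 3 alone and with edgeR on 7 libraries, and the higher count was 1 when the mean had to reach 50 and on those 6 libraries. DESeq2 called 376 and 236, and on 7 libraries 255 and 122. No share of the genes adjusted was computed for the 7 libraries, so the Hspa5 call there has none beside it. Leaving out 1 library gave 0 to 19 lower and 0 to 10 higher, the top values without control 3. Dropping 1 library moved the list medians to between -0.35 and -0.17 (cofactors), -0.21 and -0.083 (other isomerases), -0.25 and -0.084 (degradation), -0.18 and -0.058 (sensors), and -0.46 and -0.23 (translocon). The cofactor median was -0.19 with edgeR, -0.18 with DESeq2 and -0.24 with the covariate. The isomerase median was -0.21 with the covariate and -0.18 against control 3 alone, where the glycoprotein, degradation and sensor medians were -0.47, -0.065 and -0.062. The cause was not tested.

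Replicate numbers are shared by 3 pairs whose deviations correlated at -0.40, -0.043 and -0.27, and no library correlated best with its own. The deviations were taken from group means of 3 and 5 libraries, so these correlations cannot settle whether any libraries were paired. The replicate block gave 0 calls lower over all genes, and it takes URI(+/D)Hep 4 and 5 out of the comparison. At this depth 3 reads correspond to 2.65 to 3.60 normalized reads, far below the 10 genes.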

Other observations

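Some ER genes had one high value in URI(+/D)Hep 5, the library with acinar and Epcam reads. Creld2 and Syvn1 are named because of that value, and Ern1 for its sign. Creld2, an ER stress gene whose promoter holds an exact ERSE, was at 181, 118 and 145 normalized reads in the controls, at 75.0 to 122 in URI(+/D)Hep 1 to 4 and at 270.000 in URI(+/D)Hep 5. Syvn1, the ubiquitin ligase of ER-associated degradation, was at 459, 306 and 334 in the controls, at 228 to 325 in URI(+/D)Hep 1 to 4 and at 576 in URI(+/D)Hep 5. Ern1, which encodes the IRE1 sensor, was at 279, 389 and 465 in the controls and at 666, 513, 372, 647 and 352 in URI(+/D)Hep 1 to 5. Its log2 fold change was 0.41 (standard error 0.26; adjusted p in limma = 0.430), the largest positive value among the 10 genes of the sensor and ATF6 processing list, and the ranges overlapped.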
